A study of Drosophila melanogaster with 23 samples.

Results

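The libraries described here measured nascent transcription in Drosophila cells depleted of Dicer-2 (Dcr-2 KD) and in mock-treated cells of the same experiment. They were taken from experiment 3 of the study by sample name and lookup table, as 3 Dcr-2 KD libraries (replicates 1 to 3) and 3 mock libraries (replicates 10 to 12), 6 of the 23 samples in the series, and every gene with enough reads was tested (7733 of the 17659 genes counted). All 6 samples were Kc167 cells, a female, tetraploid, haemocyte-like line of embryonic origin. The Dcr-2 KD cells were transfected with dsRNA against the Dcr-2 gene and the mock cells were transfected without any RNA, and both were collected 3 days later after feeding with 5-ethynyl uridine (EU) for 1 h, so that newly made RNA could be coupled to biotin and purified. Since no library received an unrelated dsRNA, an effect of the dsRNA itself and an effect of Dcr-2 loss cannot be told apart. The labels do not say whether the replicates are separate cultures, so p-values measure the spread between these samples.

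Dcr-2 is the RNase III enzyme of the Drosophila RNA interference pathway. It cuts long double-stranded RNA, whether from viruses, hairpin transcripts or overlapping gene pairs, into short interfering RNAs, which its partners R2D2 and Loquacious help to hand over to AGO2, the protein that slices complementary RNA. The microRNA pathway uses the related enzyme Dcr-1 with AGO1. Dcr-2 KD was made in this study to ask whether transcription changes after loss of AGO2 depend on RNA interference. Because the assay captures RNA made within the labelling hour and counts reads over the whole gene body, introns included, its values follow transcription more closely than mature RNA level.

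The 6 libraries held 5215481 to 8048344 counted reads, and 8265 to 9957 genes had at least 1 read. Dcr-2 KD replicate 3 stood apart from the other 5 libraries. It had the fewest reads and the fewest genes detected, it lay alone at 42.3 on the first principal component of the 500 most variable genes where the others lay between -10.3 and -6.32, and its log2 values deviated from its group with an SD of 0.487 against 0.288 to 0.342. Over the genes tested it was the highest library for 28.8% and the lowest for 29.9%. Taken from the mean of all 6 libraries, its deviations had r = 0.196 with GC content and -0.112 with gene length across genes. Those of mock replicate 10 had r = -0.165 with GC content and 0.181 with gene length. Genes are not independent replicates here. Counts of calls are therefore also given without replicate 3 where that changes them, as are the values of genes that moved with it.

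**Figure D1:**
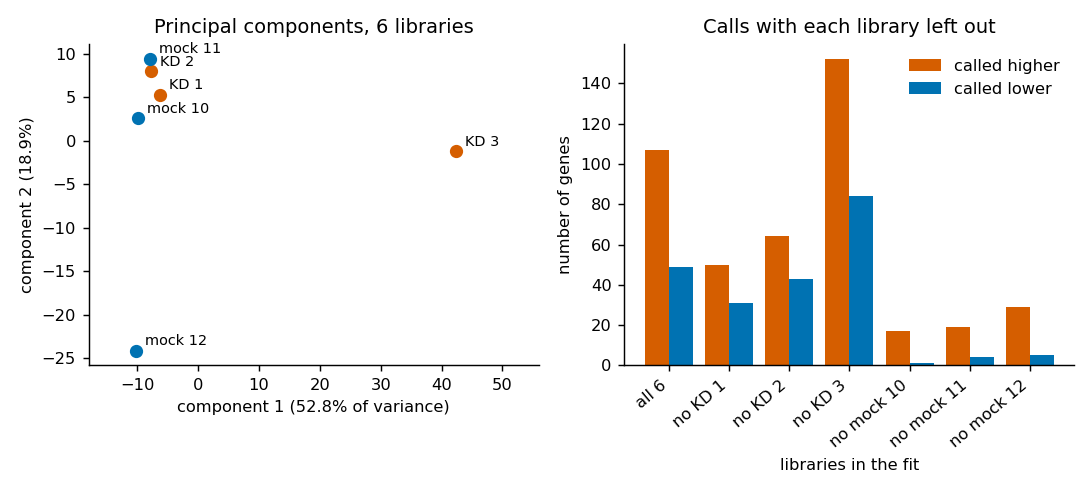
Left, the first and second principal components of log2 CPM of the 500 most variable genes, 1 point per library, Dcr-2 KD in orange and mock in blue: Dcr-2 KD replicate 3 lies alone at 42.3 on component 1, and mock replicate 12 at -24.1 on component 2. Right, the number of genes called higher (orange) and lower (blue) with all 6 libraries and with each library left out: 107 and 49 calls became 152 and 84 without Dcr-2 KD replicate 3 and 17 and 1 without mock replicate 10.

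The targeted gene was checked first. Dcr-2 (FBgn0034246, chromosome arm 2R, 17574979 to 17581525, dm6) gave 173, 188 and 129 counts per 1000000 reads (CPM) in the Dcr-2 KD libraries and 241, 226 and 241 CPM in the mock libraries. Every Dcr-2 KD library was below every mock library. The log2 fold change was -0.53 (SE 0.12, n = 3 and 3, adjusted p = 0.0592 by edgeR's quasi-likelihood test with Benjamini-Hochberg adjustment), a 1.45-fold lower nascent level. Without Dcr-2 KD replicate 3, the lowest library, the log2 fold change was -0.39 (adjusted p = 0.0171). A call here means an adjusted p below 0.1, the threshold of the study, and Dcr-2 missed it when Dcr-2 KD replicate 1 or any of the mock libraries was left out (adjusted p 0.104 to 0.325). dsRNA acts on mature RNA, and the study's methods describe a check of depletion by Western blotting, which these files do not hold.

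Of the rest of the siRNA pathway list, Hsp83, the Hsp90 chaperone that loads small RNA duplexes onto AGO2, was also called lower, and the other 10 of the 12 members tested passed in neither direction. Over all genes 0.634% were called lower. Hsp83 is counted again with the heat shock genes. R2D2, the dsRNA-binding partner of Dcr-2, gave 67.0, 62.0 and 64.7 CPM in the Dcr-2 KD and 64.4, 71.5 and 72.4 CPM in the mock libraries, and these groups overlap (r2d2, log2 fold change -0.10, SE 0.12, adjusted p = 0.775). AGO2 gave 429, 462 and 440 CPM against 393, 406 and 406 CPM, groups that do not overlap, with a log2 fold change of 0.14 (SE 0.08) that was not called (adjusted p = 0.465). The libraries of the loqs gene gave 59.7, 63.1 and 35.2 CPM against 43.3, 46.9 and 49.9 CPM, with Dcr-2 KD replicate 3 lowest of all. None of the 12 tested members of the microRNA pathway was called, and the 12 had a median log2 fold change of -0.01. Dcr-1 had a log2 fold change of -0.05 (SE 0.10) and AGO1 one of -0.17 (SE 0.08).

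Across all genes 107 were called higher (1.38% of 7733) and 49 lower (0.634%) in Dcr-2 KD, or 2.02% in either direction. Most changes were small: the median log2 fold change was 0.55 among genes called higher and -0.48 among those called lower, and 9 rises and 4 falls were at least 2-fold. Over all genes tested the median log2 fold change was 0.01, with 87.6% of genes within 0.5 of 0 on the log2 scale. An unadjusted p below 0.05 was reached by 977 genes, 500 higher and 477 lower. The Dcr-2 KD libraries lay wholly above the mock libraries for 738 genes (9.54%) and wholly below them for 746 (9.65%). All 107 genes called higher and 47 of the 49 called lower were among these, the 2 exceptions being the chaperone genes DnaJ-1 and Hsp70Ab. Dcr-2 KD replicate 3 was the most extreme library, highest for 52 of the 107 rises and lowest for 38 of the 49 falls. Without it, 152 genes were called higher (1.92% of 7917) and 84 lower (1.06%), and these included 99 of the 107 and all 49.

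**Figure D2:**
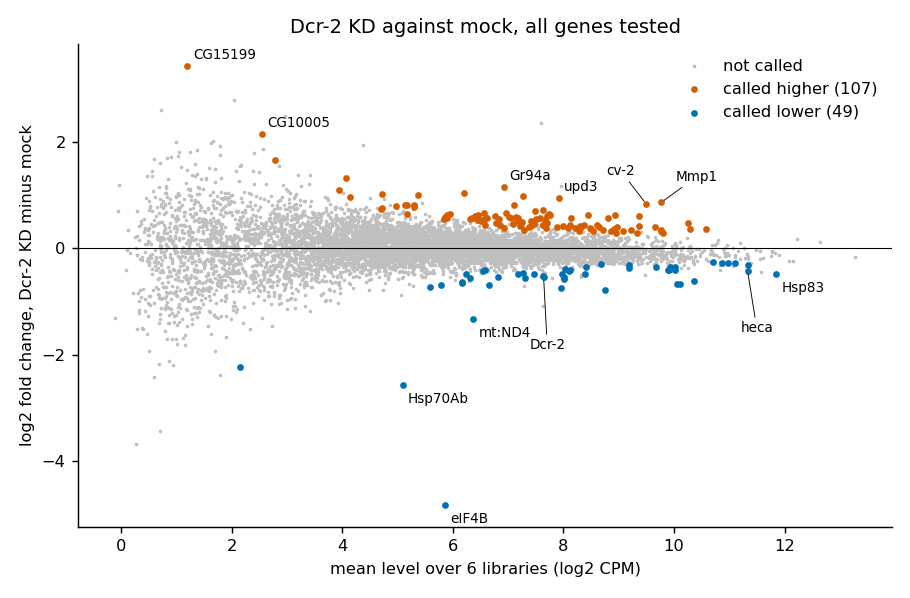
Log2 fold change of Dcr-2 KD over mock (vertical) against the mean level over the 6 libraries in log2 CPM (horizontal) for the 7733 genes tested, 1 point per gene, with the 107 genes called higher in orange and the 49 called lower in blue. Calls at low level lie far from 0 and calls at high level close to it.

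The precision depended on level. Genes were divided into 4 equal bins by level. In the lowest bin (0.932 to 13.4 CPM) the median coefficient of variation was 36.7% among the Dcr-2 KD and 32.6% among the mock libraries, and the smallest change called was 1.66 on the log2 scale. In the highest bin (126 to 9942 CPM) the same medians were 7.5% and 5.8%, and the smallest change called was 0.26. Correspondingly 0.155% of genes were called higher and 0.0517% lower in the lowest bin, against 3.41% and 1.81% in the highest. The smallest change called in the lowest bin comes from 4 calls and is not a limit of detection.

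Leaving out each library in turn kept 16 of the 107 rises in all 6 fits (a description chosen after the values were seen). These were Gr94a, Tsp42Ed, Ect3, Gadd45, upd3, Mmp1, cv-2, CG8620, hwt, p53, Ets21C, Tep4, Socs36E, rdog, Naam and Arc1. Among the falls eIF4B was kept in all 6 fits and heca in 5. A further 4 rises were kept in none, and 39 rises and 15 falls in 1 fit.

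The rises included a secreted cytokine and its feedback gene. The gene upd3 encodes a ligand that haemocytes release on injury or infection to activate the Jak-STAT receptor Domeless, and Socs36E encodes an intracellular inhibitor that Stat92E switches on. Nascent upd3 (FBgn0053542, chromosome X, 18277233 to 18284596) stood at 297, 334 and 322 CPM in Dcr-2 KD and at 155, 164 and 174 CPM in mock. The lowest Dcr-2 KD library was far above the highest mock library, and the rise was 1.93-fold (log2 fold change 0.95, SE 0.09, adjusted p = 0.000104). Socs36E (2L, 18138675 to 18152417) stood at 757, 797 and 833 CPM against 482, 507 and 583 CPM, a rise of 1.52-fold (log2 fold change 0.60, SE 0.09, adjusted p = 0.00293). Of the Jak-STAT pathway list 13 of 17 genes were tested, 2 were called higher, against 1.38% of all genes, and 0 lower, and the median log2 fold change was 0.02. Without Dcr-2 KD replicate 3 a further ligand gene, upd2, was also called higher (log2 fold change 1.09, adjusted p = 0.0393, against 1.04 and 0.101 with all 6 libraries). That fit called 1.92% of all genes higher. The transcription factor Stat92E itself gave 1120, 1092 and 951 CPM against 1193, 1185 and 1101 CPM, overlapping groups with a log2 fold change of -0.14 (adjusted p = 0.506). Tep4 (2L, 19548507 to 19556451), a secreted thioester-containing protein of the haemolymph related to complement factors, was not on a list and rose 1.55-fold, from 356, 381 and 414 CPM to 594, 554 and 641 CPM (adjusted p = 0.00293). None of the 15 tested genes of Toll and Imd immunity was called, and 6 of the 35 on that list, among them the inducible peptide genes DptA, Mtk and CecA2, had no read in any of the 6 libraries.

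Mmp1, a secreted metalloproteinase that cleaves basement membrane (FBgn0035049, 2R, 24671294 to 24688184), gave 1093, 1156 and 1124 CPM in Dcr-2 KD and 601, 667 and 582 CPM in mock. The groups were tight and far apart, and the 1.82-fold rise (log2 fold change 0.87, SE 0.08) had an adjusted p of 8.19e-05. The extracellular BMP-binding protein gene cv-2 (2R, 21355015 to 21379464) rose from 500, 520 and 541 CPM to 892, 995 and 895 CPM, with a log2 fold change of 0.84 (SE 0.08, adjusted p = 8.19e-05). Of 13 tested genes of the basement membrane and matrix list, which holds laminin and collagen genes, Mmp1 alone was called, against 1.38% of all genes called higher. The list's median log2 fold change was -0.06. The tetraspanin gene Tsp42Ed rose from 42.1, 54.9 and 46.2 CPM to 113, 90.4 and 93.1 CPM (log2 fold change 1.05, SE 0.14, adjusted p = 0.0029).

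Several stress-response regulators were among the rises, and since this group was put together after their values were seen it supports no statement about the pathways. Gadd45, a stress-induced activator of MAP kinase signalling (2R, 7249161 to 7250655), rose from 98.1, 115 and 98.7 CPM to 222, 207 and 186 CPM. That was a 1.97-fold difference between groups whose libraries were well apart (log2 fold change 0.98, SE 0.11, adjusted p = 0.000379). The tumour suppressor gene p53 (3R, 23049657 to 23054082) gave 210, 211 and 242 CPM against 135, 129 and 142 CPM, a log2 fold change of 0.71 (SE 0.10, adjusted p = 0.00293). Of 14 DNA damage response genes looked up, 4 were called higher, against 1.38% of all genes, and 0 lower, with a median log2 fold change of 0.23, the other 2 calls being the excision repair nuclease gene mus201 (log2 fold change 0.44, adjusted p = 0.0789) and nbs, a component of the break-sensing MRN complex (0.38, adjusted p = 0.0789). The calls of mus201 and nbs were lost in 6 and 5 of the 6 leave-one-out fits.

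Ets21C, an ETS-domain transcription factor that in flies acts with the AP-1 factor downstream of JNK signalling, rose from 169, 160 and 170 CPM to 238, 251 and 293 CPM (log2 fold change 0.65, SE 0.10, adjusted p = 0.0053). The AP-1 subunit Jra, the fly Jun, stood at 221, 244 and 229 CPM against 177, 180 and 176 CPM, and its log2 fold change of 0.38 (SE 0.09) was called with all 6 libraries (adjusted p = 0.0621) and lost in 5 of the 6 leave-one-out fits. The other AP-1 subunit kay, the fly Fos, had overlapping groups, 1360, 1348 and 1148 CPM against 1178, 1091 and 1099 CPM, although its lowest Dcr-2 KD library exceeded all but mock replicate 10. The JNK phosphatase gene puc gave 793, 779 and 664 CPM against 616, 579 and 612 CPM and just missed the threshold (log2 fold change 0.31, SE 0.08, adjusted p = 0.103). Of 10 JNK pathway genes looked up in an added list, Jra was the 1 called, against 1.38% of all genes called higher. The median was 0.02. Without Dcr-2 KD replicate 3, the lowest Dcr-2 KD library for kay and puc, 3 were called higher: Jra, puc (log2 fold change 0.39, adjusted p = 0.00158) and kay (0.27, adjusted p = 0.0203). Of all genes 1.92% were called higher in that fit.

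The largest rises belonged to weakly transcribed genes. The largest of all, 3.44 on the log2 scale, was in a gene with a mean below 5 CPM and is not named. By the rule used for naming genes (called, a mean of at least 5 CPM and groups that do not overlap) the 12 largest rises were CG10005, alphaTub85E, CG12766, Gr94a, Cht2, Tsp42Ed, asRNA:CR45195, Ect3, Gadd45, vari, upd3 and Mmp1. CG10005 gave 9.69, 4.78 and 14.1 CPM (65, 31 and 76 reads) against 2.06, 2.58 and 1.70 CPM (16, 19 and 11 reads), a log2 fold change of 2.15 with a wide SE of 0.52 (adjusted p = 0.0711). The Dcr-2 KD libraries differed from each other widely in this gene, and the call was lost in 5 of 6 leave-one-out fits. Gr94a, annotated as a gustatory receptor (3R, 23051689 to 23052903), was the highest of the well-measured rises, from 62.5, 77.8 and 86.1 CPM to 161, 151 and 192 CPM (log2 fold change 1.15, SE 0.13, adjusted p = 0.000528). Gr94a lies inside p53 on the opposite strand, and p53 rose too. The counting used the strand of the reads. Ect3, annotated as a beta-galactosidase, rose from 25.8, 24.6 and 31.8 CPM to 54.1, 51.1 and 60.1 CPM (log2 fold change 1.01, SE 0.16, adjusted p = 0.00803). The chitinase gene Cht2 (1.11), the MAGUK scaffold gene vari (0.96), CG12766 (1.33) and asRNA:CR45195 (1.03) had SEs of 0.23 to 0.28 on the log2 scale, adjusted p of 0.0454 to 0.0979, and lost their call in 3 to 5 of the 6 leave-one-out fits.

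**Figure D3:**
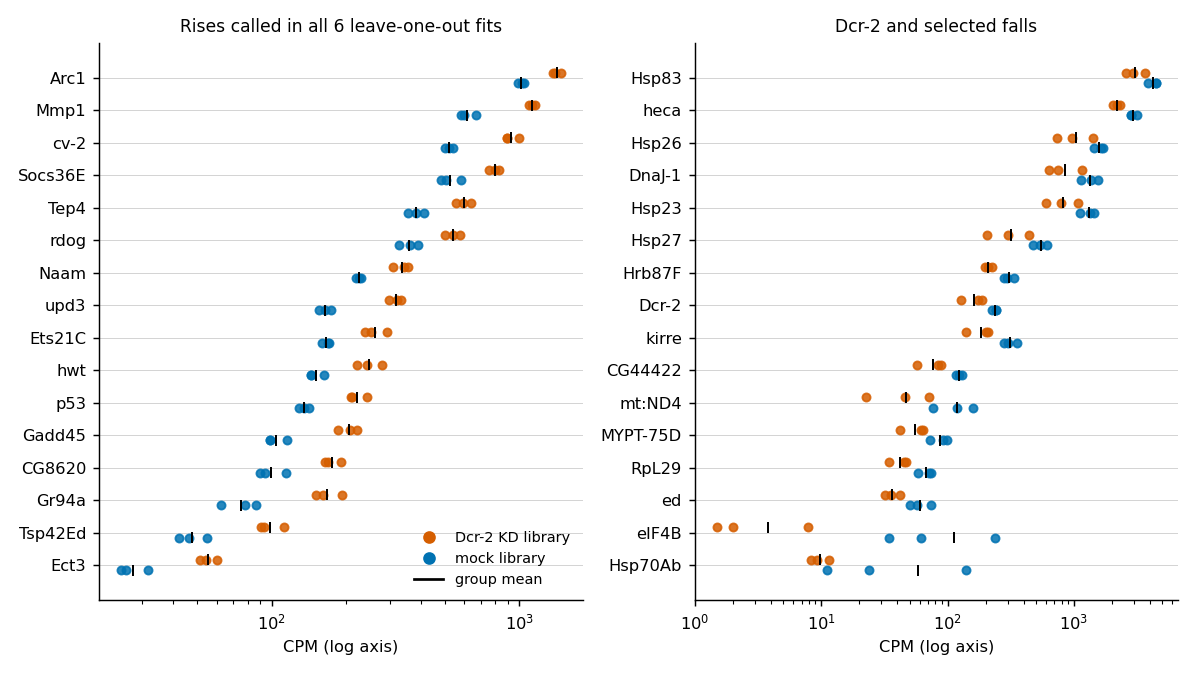
CPM of each library on a log axis, Dcr-2 KD in orange and mock in blue with a black bar at the group mean, for the 16 rises called in all 6 leave-one-out fits (left) and for Dcr-2 and selected falls (right). The rises show separate groups of narrow spread, as in Mmp1 at 1093 to 1156 CPM against 582 to 667 CPM, while among the falls Dcr-2 KD replicate 3 is often the lowest point and the Hsp70Ab groups overlap.

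The remaining rises with stable calls were of other kinds. Arc1, a gene derived from a retrotransposon Gag whose protein forms capsids that carry RNA between cells, was the highest of them in level, at 1402, 1476 and 1375 CPM against 989, 1023 and 1049 CPM (log2 fold change 0.47, SE 0.07, adjusted p = 0.00386). Naam, a nicotinamidase of the NAD salvage route, rose from 220, 225 and 230 CPM to 342, 354 and 308 CPM (log2 fold change 0.57, SE 0.09, adjusted p = 0.00528). The genes hwt, rdog and CG8620 rose by 0.72, 0.58 and 0.81 on the log2 scale (adjusted p 0.00293 to 0.00528), with no overlap between groups.

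In the lists of structural and metabolic genes few members passed. Over all genes 1.38% were called higher and 0.634% lower, and the median log2 fold change was 0.01. Of 5 tubulin genes tested 2 were called higher, against 1.38% of all genes, with a median log2 fold change of 0.31 over the 5 that fell to 0.09 without Dcr-2 KD replicate 3. The called members were alphaTub85E at 74, 65 and 57 reads against 33, 19 and 20 reads (log2 fold change 1.66, SE 0.41, adjusted p = 0.074) and betaTub97EF at 177, 204 and 127 CPM against 103, 120 and 114 CPM (0.59, SE 0.15, adjusted p = 0.0711). The most transcribed one, alphaTub84B, had overlapping groups (0.22, SE 0.11, adjusted p = 0.411). All 12 glycolysis genes tested had a log2 fold change above 0, with a median of 0.25 that was 0.12 without Dcr-2 KD replicate 3, and 1 was called: Ldh, lactate dehydrogenase, at 221, 230 and 277 CPM against 166, 184 and 170 CPM (0.49, SE 0.10, adjusted p = 0.0474). In the nuclear lamina list 1 of 12 was called, the A-type lamin gene LamC (163, 181 and 167 CPM against 136, 124 and 122 CPM, log2 fold change 0.42, adjusted p = 0.0621), while Lam, which encodes the B-type LaminB, had overlapping groups and a log2 fold change of -0.07 (SE 0.09). The ecdysone list had 1 call in each direction among 13. ImpL2, a secreted binder of insulin-like peptides, rose from 676, 699 and 698 CPM to 954, 982 and 823 CPM (0.41, SE 0.08, adjusted p = 0.0321), and the nuclear receptor gene Eip78C fell from 468, 441 and 448 CPM to 365, 378 and 365 CPM (-0.29, SE 0.08, adjusted p = 0.0896). Tubulin, Ldh, LamC, ImpL2 and Eip78C calls were each lost in 3 to 5 of the 6 leave-one-out fits.

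Heat shock genes were the largest group among the falls. Heat shock proteins are chaperones whose genes the factor Hsf switches on within minutes of heat or other protein-damaging stress, through heat shock elements close to the start of the gene. Of the 28 genes on the heat shock and chaperone list 23 were tested. Of these 6 were called lower, against 0.634% of all genes, and 0 higher, and 22 had a log2 fold change below 0, with a median of -0.54 over the 23 against 0.01 over all genes. That median was -0.29 without Dcr-2 KD replicate 3, where 8 were called lower, the 6 and also Hsp68 and Hsc70-3. Of all genes 1.06% were called lower in that fit. The summed level of the list was 11893 to 16542 CPM in Dcr-2 KD and 16559 to 19420 CPM in mock, so that the highest Dcr-2 KD library was just under the lowest mock library.

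The small heat shock protein genes Hsp27, Hsp26 and Hsp23 lie side by side on 3L. Hsp27 (9384063 to 9385694) gave 303, 439 and 204 CPM against 616, 475 and 544 CPM, a log2 fold change of -0.79 (SE 0.19, adjusted p = 0.0691). Hsp23 gave 788, 1077 and 604 CPM against 1456, 1122 and 1356 CPM (-0.67, SE 0.15, adjusted p = 0.0592), and Hsp26 967, 1414 and 735 CPM against 1695, 1445 and 1642 CPM (-0.62, SE 0.16, adjusted p = 0.0925). In each of these genes the order of the libraries was the same: Dcr-2 KD replicate 3 lowest, replicate 1 next, and replicate 2 just below mock replicate 11, the lowest mock. Hsp83 gave 2965, 3661 and 2582 CPM against 4473, 3842 and 4513 CPM in that same order (-0.48, SE 0.10, adjusted p = 0.0494), and so did the co-chaperone gene DnaJ-1 except that its replicate 2, at 1156 CPM, exceeded mock replicate 11, at 1148 CPM (-0.67, SE 0.16, adjusted p = 0.0735). Hsp70Ab stood at 8.35, 11.6 and 9.27 CPM against 23.8, 11.1 and 141 CPM. Its fall of 2.58 on the log2 scale rests on mock replicate 12, and since the Hsp70 copies are nearly identical, reads can be shared or lost between them. The constitutive Hsc70-4 had overlapping groups and a log2 fold change of -0.13 (SE 0.08, adjusted p = 0.524), and Hsf, the activator, one of -0.00 (adjusted p = 0.991). Without Dcr-2 KD replicate 3 the changes were smaller but called, at -0.55 for Hsp27, -0.49 for Hsp23, -0.42 for Hsp26, -0.50 for DnaJ-1 and -0.37 for Hsp83 (adjusted p 0.00627 to 0.0257). The calls of Hsp27, Hsp26, Hsp23, DnaJ-1 and Hsp83 were lost when Dcr-2 KD replicate 1 or any mock library was left out, and that of Hsp70Ab in 4 of the 6 leave-one-out fits. All but that of Hsp83 were also lost with DESeq2 and with a robust estimate of the dispersion, and that of Hsp70Ab with voom. The mock libraries of the first experiment stood far lower for the small heat shock genes. They gave 5.807 to 15.002 CPM for Hsp27, 11.3 to 29.2 CPM for Hsp23 and 83.6 to 90.6 CPM for Hsp26. The gap was narrower for DnaJ-1 (668 to 807 CPM) and Hsp83 (2891 to 3063 CPM). Why these levels differ between the experiments was not tested.

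The heat shock element was looked for as the letters GAANNTTC, the same on both strands, in the 300 bases from 250 before to 50 after each annotated gene start. It was present in 12 of the 23 tested genes of the list (52.2%) and in 684 of the 7603 promoters searched (9.0%). Heat shock genes are switched on through this element, so the share in the list does not bear on the effect of Dcr-2 KD. Among genes called lower it was present in 7 of 46 promoters (15.2%), which include the 4 shown here. The matches of 4 of the called genes are shown in the direction of the gene, with the element in capitals and 8 bases on each side, as examples from the group of falls with the most members. The other 2 called genes, Hsp27 and Hsp83, hold no match to these letters in the window.
Hsp26, chr3L:9377540-9377563, minus strand: ttataaaaGAAATTTCtaatttga
Hsp23, chr3L:9381736-9381759, plus strand: cagcccgaGAAGTTTCgtgtccct
DnaJ-1, chr3L:5752181-5752204, minus strand: agcatccaGAAATTTCgacgtaga
Hsp70Ab, chr3R:11958348-11958371, plus strand: aaactcgaGAAATTTCtctggccg
The element starts at -128, -138, -7 and -179 relative to the gene start in these genes, and Hsp70Ab holds 3 such matches in the window. For the rises, the AP-1 letters TGANTCA occurred in 9 of 104 promoters of genes called higher (8.65%) and in 4 of the 16 stable ones, against 5.85% of all promoters searched. The STAT letters TTCNNNGAA occurred in 4 of 104 (3.85%) and in 1 of the 16, against 8.83%. GAANNTTC occurred in 8 of 104 (7.69%) and in 2 of the 16. The 16 were chosen from these same data. No AP-1 match was found for upd3, Ets21C, puc, p53, rdog, hwt or Naam, and no STAT match for upd3 or Socs36E. Tep4 holds 1 AP-1 match, starting at -55:
Tep4, chr2L:19548444-19548466, plus strand: acaacagcTGACTCAgagagagc
A match is a string of letters and not a measured binding site.

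Transcripts of the mitochondrial genome were lower in all 12 tested genes of its list. Their median log2 fold change was -0.45, or -0.24 without Dcr-2 KD replicate 3. Of that genome 13 genes were tested, and the 1 not on the list, a tRNA gene of 66 bases, was higher. It had a log2 fold change of 0.87 (SE 0.70) at a mean of 2.62 CPM. Over all genes the median was 0.01, and 0.634% were called lower. The 1 gene called was mt:ND4, a subunit of complex I, at 71.7, 46.1 and 22.4 CPM against 159, 119 and 76.5 CPM (log2 fold change -1.33, SE 0.31, adjusted p = 0.0592). Within both groups its level varied widely, and the call was lost when any mock library was left out, with DESeq2 and with a robust dispersion. The most transcribed gene, mt:CoI, gave 3117, 2667 and 1937 CPM against 3721, 3372 and 3400 CPM and was not called (-0.44, SE 0.12, adjusted p = 0.116). Without Dcr-2 KD replicate 3, the lowest library for both genes, 3 genes of the list were called lower: mt:ND4 (-1.0, adjusted p = 0.00663), mt:CoI (-0.27, adjusted p = 0.0203) and mt:ATPase6 (-0.74, adjusted p = 0.0306). That fit called 1.06% of all genes lower. Mitochondrial RNA made up 0.559% to 0.826% of counted reads in Dcr-2 KD and 0.835% to 0.920% in mock, lowest in Dcr-2 KD replicate 3. The nuclear genes for oxidative phosphorylation (68 tested) and for mitochondrial ribosomal proteins (69 tested) had 0 calls, with medians of 0.06 and 0.03.

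The largest fall was in eIF4B, a translation initiation factor gene in the pericentric part of 3L (27842669 to 27858271). It gave 7.90, 2.01 and 1.48 CPM (53, 13 and 8 reads) in Dcr-2 KD and 239, 34.7 and 61.4 CPM (1857, 255 and 396 reads) in mock, a log2 fold change of -4.83 (SE 0.68, adjusted p = 0.00293). The mock libraries themselves spanned 34.7 to 239 CPM, the gene shares its strand with lncRNA:CR46482, and the call was lost with a robust estimate of the dispersion. In the first experiment of the series its level was 0 to 0.423 CPM in 3 mock libraries and 0.449 to 76.5 CPM in 3 LaminB KD libraries. No other of the 17 translation factors tested was called. Of 79 cytosolic ribosomal protein genes tested 1 was called, against 0.634% of all genes called lower. This was RpL29, at 47.0, 44.9 and 34.1 CPM against 73.7, 71.2 and 58.6 CPM (log2 fold change -0.69, SE 0.16, adjusted p = 0.0592). The median of the 79 was -0.02.

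The falls lay mostly in long, AT-rich genes. The 49 genes called lower had a median gene length of 29308 bases and a median GC content of 41.7%, against 2875 bases and 45.9% over all genes tested, and 5232 bases and 45.3% among the genes called higher. With 4 equal bins by length, 1.63% of the longest genes were called lower and 2.21% higher, and 0.210% and 0.683% of the shortest. With 4 bins by GC content of 1904 genes each, 30 genes of the bin with the lowest content were called lower and 2 of the bin with the highest, where calls higher numbered 21 and 24. Long genes also have more reads, and the deviations of Dcr-2 KD replicate 3 and of mock replicate 10 ran with GC content and length. With a fitted trend on length and GC content taken out 33 of the 49 falls and 95 of the 107 rises were still called.

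The adhesion protein genes kirre and ed were among them. kirre, an immunoglobulin-family protein of muscle and nephrocyte adhesion, spans 394149 bases of chromosome X and holds 12 other genes on its strand. It gave 203, 209 and 141 CPM against 352, 282 and 299 CPM (log2 fold change -0.75, SE 0.13, adjusted p = 0.0163). Echinoid (ed, 84373 bases) gave 35.5, 41.8 and 31.7 CPM against 73.6, 56.8 and 50.7 CPM (-0.73, SE 0.17, adjusted p = 0.0621). Both groups were separate, with mock replicate 10 highest in each gene. heca, a cytoplasmic protein of imaginal cell differentiation encoded by 94451 bases of 3R, had the most stable fall after eIF4B, 2335, 2218 and 2058 CPM against 3139, 2847 and 2829 CPM (-0.41, SE 0.07, adjusted p = 0.0124), and was lost only without mock replicate 10. CG44422 fell by 0.68 on the log2 scale and MYPT-75D, a myosin phosphatase targeting subunit, by 0.66 (adjusted p = 0.0448 and 0.0789). With the length and GC trend taken out, ed, MYPT-75D and Eip78C were no longer called and kirre, heca and CG44422 were. Among shorter genes, Hrb87F, an hnRNP A1-like splicing factor gene of 3686 bases, fell from 338, 295 and 282 CPM to 224, 207 and 197 CPM (-0.54, SE 0.10, adjusted p = 0.0163), and the galactosyltransferase gene GalT1 by 0.62 on the log2 scale (adjusted p = 0.0779). Another of the 5 falls with the smallest adjusted p has no symbol in the annotation used and is not described here.

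Calls were also counted at loci that can give rise to endogenous siRNAs. Convergent gene pairs, whose 3' ends overlap on opposite strands, can form double-stranded RNA. Of 2259 tested genes with such an overlap 1.24% were called higher and 0.443% lower, against 1.42% and 0.691% of 5357 without. The 3 hairpin RNA genes tested had 0 calls and log2 fold changes of -0.20 to 0.22. Other hairpin genes looked for, among them hpRNA:CR18854, hpRNA:CR46342 and hpRNA:CR46343, were not found by name and are not covered. Genes that share their strand with an annotated transposon insertion were called lower more often in count, 13 of 479 (2.71%) against 34 of 7137 (0.476%), and higher in 4 of 479 (0.835%) against 100 of 7137 (1.40%). These genes run to the greatest lengths in the annotation, so this split and that by length cannot be told apart here. No test was made of any of these differences.

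The lists of piRNA, insulator, actin cytoskeleton, DNA replication, proteasome, vacuolar ATPase, histone, dsRNA-binding and haemocyte genes had 0 called members of 12, 14, 21, 18, 33, 15, 4, 11 and 18 tested. Their medians lay between -0.10 and 0.11 on the log2 scale, close to the 0.01 of all genes. The 9 rRNA genes and pseudogenes and 2 small nuclear RNA genes tested had 0 calls as well. Without Dcr-2 KD replicate 3, CycE of the DNA replication list was called lower (log2 fold change -0.31, adjusted p = 0.0557), and among the rRNA pseudogenes 1 was called higher and 1 lower. That fit called 1.92% of all genes higher and 1.06% lower. Kc167 identity was checked with marker lists. Plasmatocyte markers (9 of 10 tested) summed to 5885 to 6236 CPM in Dcr-2 KD and 6333 to 6394 CPM in mock, ranges that do not overlap, and no member was called. The GATA factor gene srp, which specifies haemocytes, had overlapping groups (log2 fold change 0.02, SE 0.07). Markers of fat body, muscle, crystal cells, lamellocytes, germline, testis and male dosage compensation summed to at most 41.1 CPM each in any library. Neuron markers (5 of 6 tested) stood higher, at 289 to 335 CPM in Dcr-2 KD and 283 to 322 CPM in mock. These ranges overlap, and no neuron marker was called. Muscle markers summed to 17.1 to 21.6 CPM against 29.1 to 36.1 CPM, and their part in the results was not tested.

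**Figure D4:**
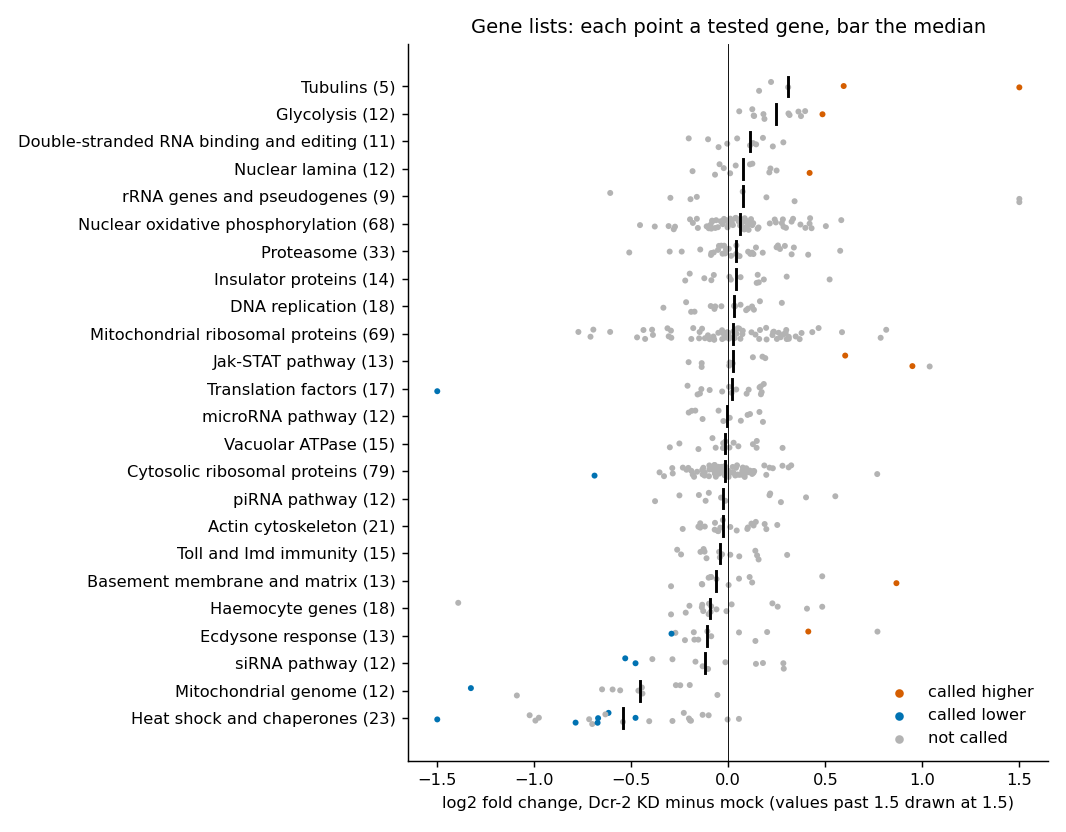
Log2 fold change of Dcr-2 KD over mock for each tested gene (points) of the lists with at least 5 tested members, with calls higher in orange, calls lower in blue and the list median as a black bar, the number tested being in parentheses. Heat shock and chaperone genes (median -0.54) and mitochondrial genome genes (-0.45) lie to the left, and tubulin (0.31) and glycolysis genes (0.25) to the right.

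The study compared this knockdown with depletion of AGO2 and of LaminB, which were made in its first experiment as 3 libraries each against 3 mock libraries that both share. Comparing whole profiles, it reported that Dcr-2 KD did not resemble either of them. From this and from rescue by a catalytic AGO2 mutant it concluded that AGO2 and LaminB act here without RNA interference. The overlaps given next cover called genes only, and no correlation over all genes is given here. In those libraries 645 genes were called higher (7.92% of 8142) and 189 lower (2.32%) after AGO2 KD, and 1356 higher (16.7%) and 1018 lower (12.5%) after LaminB KD. Of the 107 rises in Dcr-2 KD 77 were also called higher in AGO2 KD, or 77 of that list's 645, and 81 in LaminB KD, or 81 of 1356. Opposite calls numbered 0 and 3. Of the 49 falls 7 were called lower and 7 higher in AGO2 KD, and 8 lower and 18 higher in LaminB KD. All 16 stable rises were called higher in both other knockdowns. AGO2 KD was made with siRNA and LaminB KD with dsRNA, and their mock cells likewise received no RNA. An effect of transfected RNA common to the 3 knockdowns was not tested.

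The difference between the effects, each against its own mock libraries, was tested as an interaction, where larger and smaller mean a higher and a lower log2 fold change in Dcr-2 KD. The Dcr-2 KD effect was larger than the AGO2 KD effect for 102 genes (1.24% of 8249) and smaller for 333 (4.04%), and larger than the LaminB KD effect for 420 (5.01% of 8377) and smaller for 713 (8.51%). Among the 107 rises the effect differed from that of AGO2 KD for 21, 10 larger and 11 smaller, and from that of LaminB KD for 37, 16 larger and 21 smaller. Among the 49 falls it was smaller than in AGO2 KD for 32 and larger for 1, and smaller than in LaminB KD for 37. The rises and falls were picked from the same Dcr-2 KD and mock libraries that enter these differences. Differences in the direction of the pick are therefore favoured, and these splits are no separate support. Over all genes the counts against AGO2 KD became 53 and 93 with the length and GC trend taken out, so they depend on that choice, and experiment and knockdown cannot be told apart beyond each experiment's own mock libraries.

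upd3 rose less in Dcr-2 KD than in AGO2 KD, where its log2 fold change was 1.52, and more than in LaminB KD, where it was 0.38 (adjusted p of the differences 0.0207 and 0.0154). Mmp1 rose by 0.74 in AGO2 KD, where the difference from the 0.87 of Dcr-2 KD did not pass the test (adjusted p = 0.54), and by 0.39 in LaminB KD, where it did (adjusted p = 0.00301). Tep4 and rdog rose most in LaminB KD, by 1.48 and 1.54. Jra stood at -0.02 and -0.06 in the other 2 knockdowns, and its differences from them had adjusted p of 0.0571 and 0.0452. Among the falls heca stood at 0.11 and 0.26 and Eip78C at 0.30 and 1.09 in AGO2 KD and LaminB KD. Dcr-2 itself was at -0.01 in AGO2 KD and rose by 0.43 in LaminB KD.

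**Figure D5:**
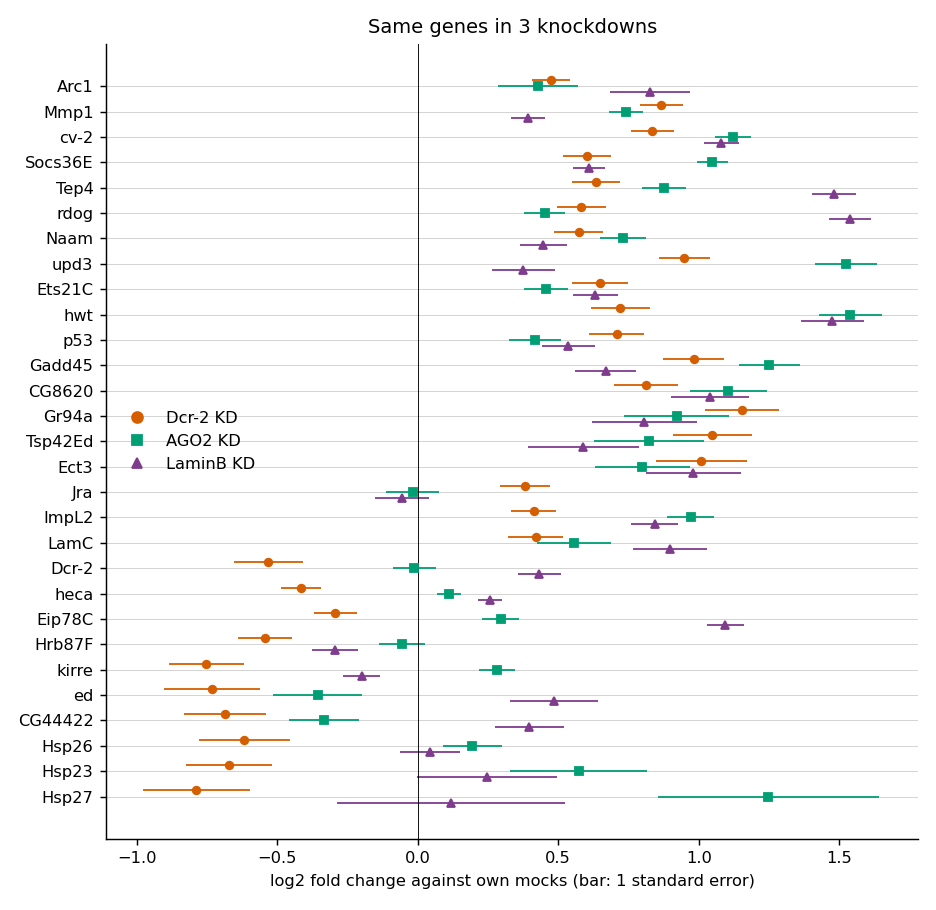
Log2 fold change against each experiment's own mock libraries, with bars of 1 standard error, in Dcr-2 KD (orange circles), AGO2 KD (green squares) and LaminB KD (purple triangles) for the 16 stable rises, 3 further rises, Dcr-2 and 9 falls. The 16 rises lie right of 0 in all 3 knockdowns, while heca and Eip78C lie left of 0 in Dcr-2 KD and right of it in the other 2.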

How the data were processed

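The authors sequenced biotin-selected EU-labelled RNA as stranded 50-base single reads, trimmed them with cutadapt 1.10, aligned them to dm6 with HISAT2 2.0.4 and counted reads per gene body by strand with featureCounts 1.5.0-p3 on FlyBase annotation (tools and build per the submitters' processing notes and the study's methods). The deposited table holds raw counts per gene, not normalized, and a lookup table gives experiment and group. No column of another series was found (0).

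From the deposited counts, experiment 3 (3 Dcr-2 KD and 3 mock libraries) was filtered with filterByExpr, scaled by TMM and tested with edgeR 4.0.16 quasi-likelihood F tests in R 4.3.3, with Benjamini-Hochberg adjustment over 7733 genes and a threshold of 0.1. SE is the log2 fold change divided by the square root of F. CPM uses TMM-scaled totals. AGO2 KD and LaminB KD were fitted together with their own mock libraries, and differences between effects as contrasts over both experiments. The tests were tried on simulated data. Symbols and positions came from an Ensembl annotation of the same assembly, which matched 17464 of 17659 IDs. Promoter sequence came from the RefSeq Release 6 genome.

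Named genes were Dcr-2, the 12 largest rises and 10 largest falls among calls whose groups did not overlap and whose mean CPM reached 5, the 5 smallest adjusted p in each direction, called members of the gene lists and the 3 most transcribed members per list. Others were named after their values were seen. Genes and lists were chosen with earlier results of these data known. Alternatives were limma 3.58.1 voom with quality weights, DESeq2 1.42.0, other scalings, filters and thresholds, a length and GC trend, leaving out libraries and a replicate block. Totals of 5215481 to 8048344 reads put 3 reads at 0.387 to 0.556 CPM. Some genes are not reported here.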

Additional observations from a re-analysis of the deposited data

Results flagged for a closer look

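The effect of Dcr-2 KD on the log2 scale differed from that of another knockdown, by an interaction test of edgeR adjusted over all genes, for the genes given here as the Dcr-2 KD effect minus the other effect. Many of these genes were picked by their Dcr-2 KD values, which also enter the differences. No cause of these differences was tested.

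Against AGO2 KD the targeted genes differed, by -0.51 for Dcr-2 (adjusted p = 0.0912) and 0.62 for AGO2 (adjusted p = 0.00355). Among the genes that rose, the difference was -0.57 for upd3 (adjusted p = 0.0207), -0.44 for Socs36E (0.029), -0.81 for hwt (0.00523) and -0.55 for ImpL2 (0.0114), and 0.40 for Jra (0.0571). Among those that fell it was -2.03 for Hsp27 (adjusted p = 0.00409), -1.24 for Hsp23 (0.044), -0.80 for Hsp26 (0.0529), -1.03 for kirre (0.00355), -0.52 for heca (0.00409), -0.58 for Eip78C (0.00484), -0.48 for Hrb87F (0.0536) and -0.92 for RpL29 (0.0546). For Hsp27, Hsp23 and Hsp26 the 2 sets of mock libraries were at very different levels. They stood at most at 15.002, 29.2 and 90.6 CPM in the first experiment and at least at 475, 1122 and 1445 CPM here.

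Against LaminB KD the targeted genes differed by -0.96 for Dcr-2 (adjusted p = 0.000321) and 1.56 for Lam (5.87e-08). Rises were smaller in Dcr-2 KD for Tep4 (-0.84, adjusted p = 2.9e-05), rdog (-0.95, 9.16e-06), hwt (-0.75, 0.00542), Arc1 (-0.35, 0.0295), ImpL2 (-0.43, 0.0274) and LamC (-0.48, 0.0563). They were larger for upd3 (0.58, adjusted p = 0.0154), Mmp1 (0.48, 0.00301), vari (1.31, 0.0276) and Jra (0.44, 0.0452). Genes called lower in Dcr-2 KD differed by -1.38 for Eip78C (adjusted p = 9.31e-09), -0.67 for heca (3.8e-05), -0.55 for kirre (0.0328), -1.21 for ed (0.00387), -1.07 for CG44422 (0.00202), -0.70 for MYPT-75D (0.0218) and -1.51 for mt:ND4 (0.021). The heat shock genes Hsp23, Hsp26 and Hsp70Ab differed by -0.91, -0.65 and -2.80 (adjusted p 0.0601, 0.0616 and 0.0491). Their mock libraries in the first experiment again stood lower than those used here, at 2.72 to 9.07 CPM against 11.1 to 141 CPM for Hsp70Ab. Genes not called in Dcr-2 KD with all 6 libraries differed too, by -0.29 for Stat92E (0.0604), -0.34 for kay (0.0345), 0.50 for alphaTub84B (0.0186), 0.31 for Hsc70-4 (0.0481) and -0.32 for AGO1 (0.0462). The fitted difference of -12.11 for eIF4B (0.00029) rests on mock libraries of the first experiment at 0 to 0.423 CPM and is no measure of size.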

How the results depend on the processing

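Counts of genes called higher and lower (107 and 49) were within 1.5 times of these with RLE size factors, total counts, a filter at 1 CPM, a robust dispersion, without mitochondrial and rRNA genes, and with the length and GC trend removed. They became 201 and 173 without a filter, 200 and 149 with voom quality weights and 49 and 13 at an adjusted p of 0.05, and DESeq2 gave 144 and 170. Leaving out each library gave 17 to 152 rises and 1 to 84 falls, with the lowest counts without mock replicate 10 and the highest without Dcr-2 KD replicate 3. The cause of these moves was not tested. The replicate block gave 149 and 132. Deviations from the group mean had r = 0.0532, -0.00379 and 0.0271 across genes between samples with the same lookup number. These values cannot decide whether such samples were prepared together, since each mean rests on few libraries and replicate 3 dominates that of Dcr-2 KD.

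Counts larger and smaller than the AGO2 KD effect (102 and 333) became 233 (larger) with total counts, 170 (larger) with voom, 530 (smaller) with DESeq2, 27 and 178 at 0.05, and 53 and 93 with the trend removed, and without each library 32 to 137 and 148 to 384. For LaminB KD (420 and 713) the larger count became 707 with total counts, 221 at 0.05 and 254 to 463 without each library, and the smaller count 255 with the trend removed. The Dcr-2 log2 fold change of -0.53 kept its sign in every fit. It missed the stricter threshold of 0.05 (-0.53, adjusted p = 0.0592), as with RLE size factors, total counts and the 1 CPM filter, and passed it without a filter, with DESeq2, voom, a robust dispersion, the block, the trend removed and without mitochondrial and rRNA genes (adjusted p 9.42e-05 to 0.0494). It ranged from -0.64 to -0.39 without each library. Of the other named genes, none called changed direction. Among the uncalled, mt:ND1 was at 0.12 with the trend removed, and leaving out each library put srp at -0.022 to 0.070 and Dcr-1 at -0.12 to 0.0024. At the lowest levels depth limits what can be seen.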
